A study of Mus musculus with 12 samples.

Results

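The colony stimulating factor (CSF) genes described here are the ligand gene Csf1 and the receptor genes Csf1r, Csf2ra, Csf2rb, Csf2rb2 and Csf3r. These 6 of the 18193 genes with a probe set on the array were taken by name, and each was represented by its probe set with the highest mean over the 12 arrays. All 6 passed the filter on low values, which kept 9120 genes. Hippocampal CD11b+ cells, isolated by flow sorting, came from female mice from the Jackson Laboratory, aged 6.5 weeks in the growth protocol and 10.5 weeks in the sample labels. The groups were sham C57BL/6, C57BL/6 given 10 Gy, sham Balb/c and Balb/c given 10 Gy, with 3 mice each and 1 array per mouse. The 10 Gy were a single dose of X-rays to a circular field of 1 cm over the forebrain under ketamine and xylazine, with the eyes, nose and cerebellum shielded, and cells were taken 1 month later. CD11b is also carried by other myeloid cells, so the sort can hold cells other than microglia. The comparisons ask whether these transcripts change in hippocampal microglia after irradiation, and whether the change differs by strain.

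CSF1 and a second ligand, made from Il34, both bind the receptor tyrosine kinase CSF1R, and microglia depend on signalling through this receptor for their survival and renewal. GM-CSF, the product of Csf2, binds the alpha chain encoded by Csf2ra, which pairs with the common beta chain encoded by Csf2rb. In mice a second beta chain, encoded by the neighbouring gene Csf2rb2, serves the interleukin 3 receptor. G-CSF binds the receptor encoded by Csf3r, which is best known from neutrophils. The GM-CSF and G-CSF receptors have no kinase of their own and act through Janus kinases and STAT factors. The ETS factor PU.1, made from Spi1, drives the promoters of several of these receptor genes in myeloid cells.

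On the assembly GRCm38.p6, RefSeq places Csf1 at chr3:107741048-107760469, Csf3r at chr4:126023441-126044975 and Csf2ra at chr19:61217191-61228461. Csf2rb at chr15:78325800-78351001 and Csf2rb2 at chr15:78282507-78305721 are neighbours. The 200 bases before the RefSeq start site are given for the 2 members that passed the test in a comparison, Csf1 and Csf3r, and for Csf2ra, whose window holds a repeated match. Of 5 members looked up, 4 had an entry in the promoter table, and no sequence is given for Csf1r. Capitals mark GAGGAA or its reverse complement TTCCTC, searched on both strands, and 19% of the 32851 windows of this length hold at least 1. This string is found in some ETS sites and is longer than their GGAA core, which was not searched alone. The Csf3r window is chr4:126024459-126024658 on the plus strand and lies inside the annotated gene span, with 1 match that starts 86 bases before the start site. The Csf2ra window, chr19:61228419-61228618 on the minus strand, has 2 matches in a row, starting 14 and 8 bases before the start site. The end of this window next to the start site, with both matches, also lies inside the annotated gene span. The Csf1 window, chr3:107760470-107760669 on the minus strand, has no match to GAGGAA or TTCCTC, though it does hold the shorter GGAA. A match is a description of the letters and not a measured site.
Csf1: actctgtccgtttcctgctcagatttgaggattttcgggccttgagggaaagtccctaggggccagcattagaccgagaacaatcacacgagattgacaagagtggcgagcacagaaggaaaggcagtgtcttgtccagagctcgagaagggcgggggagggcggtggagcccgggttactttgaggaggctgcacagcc
Csf3r: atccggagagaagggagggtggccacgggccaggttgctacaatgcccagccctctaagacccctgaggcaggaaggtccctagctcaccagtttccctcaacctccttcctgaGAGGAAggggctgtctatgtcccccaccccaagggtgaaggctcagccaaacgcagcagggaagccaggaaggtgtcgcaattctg
Csf2ra: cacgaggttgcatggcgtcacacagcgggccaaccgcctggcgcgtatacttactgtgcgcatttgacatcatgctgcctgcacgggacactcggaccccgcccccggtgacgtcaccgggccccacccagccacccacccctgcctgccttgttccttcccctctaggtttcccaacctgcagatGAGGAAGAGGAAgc

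The deposited values are log2 signals made with GCRMA, and they run from 2.23 to 16.2 on every array. The microglial markers P2ry12, Tmem119 and Cx3cr1 were bright on all 12 arrays, at 13.76 to 14.32, 13.84 to 14.18 and 13.79 to 14.20. Cdkn1a, the p53 target that checks the treatment, was higher in irradiated mice by 4.35 in C57BL/6 and 3.12 in Balb/c on the log2 scale. Balb/c irradiated replicate 2 stood apart with a 3' minus 5' log2 difference of Actb and Gapdh of 4.82, against a mean of 3.69 ± 0.14 (SD, n = 3) in Balb/c sham. Of all arrays, C57BL/6 irradiated replicate 3 correlated least with its own group, at a mean of 0.966. For several results, but not for all, values without 1 or both of these arrays are also given. Correlations between genes are given only with both arrays included. Because the RNA comes from bulk sorted cells, fewer cells of a type and less RNA per cell cannot be told apart.

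**Figure D1:**
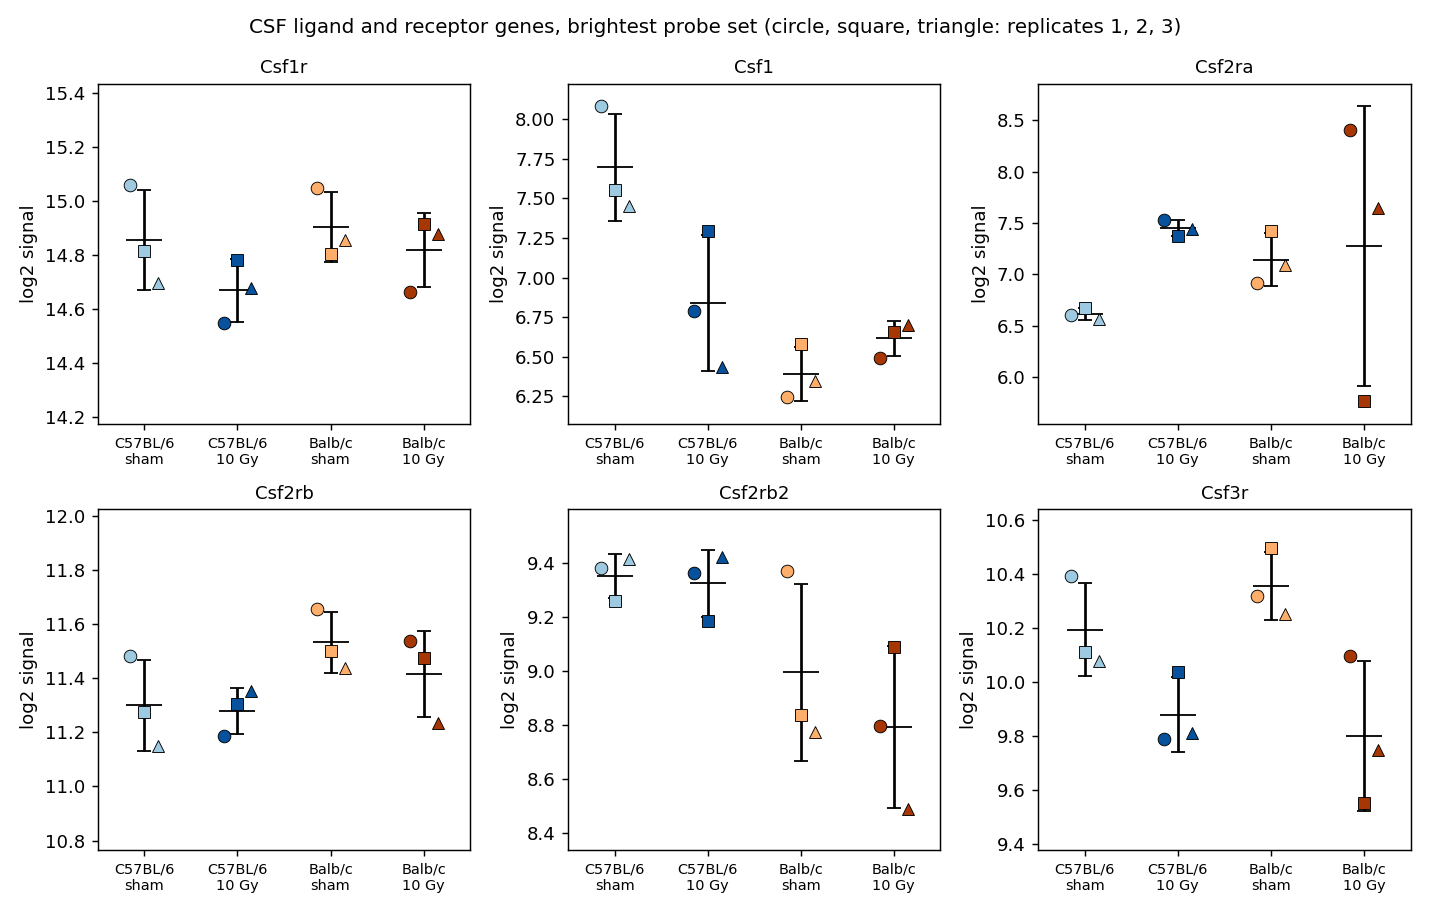
Log2 signal of the 6 genes in each array by group, brightest probe set of each gene, with circle, square and triangle for replicates 1, 2 and 3 and black bars for the mean ± SD (n = 3); each panel has its own axis, which does not start at 0. Csf1 sits at 7.45 to 8.08 in C57BL/6 sham and at 6.25 to 6.58 in Balb/c sham, and Csf3r is lower in the irradiated than in the sham arrays of both strains.

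Across the 6 genes, few differences passed the test (limma, Benjamini and Hochberg adjustment over all 9120 genes, adjusted p under 0.05). Irradiation against sham called 0 of 6 in C57BL/6, where 3.67% of all genes were called, and 0 of 6 in Balb/c, where 6.15% were. Averaged over both strains it called 1 of 6, Csf3r, against 15.9% of all genes. Balb/c against C57BL/6 called 1 of 6 in sham mice, Csf1, against 10.5% of all genes, and 0 of 6 in irradiated mice, against 8.97%. The test of whether irradiation acted differently in the strains, the interaction, called 0 of 6, against 0.0768% of all genes. At an unadjusted p under 0.05 in limma, 1 member stood in each of the 6 comparisons, Csf1 in C57BL/6, in sham mice and in the interaction, Csf3r in Balb/c and in the average, and Csf2rb2 in irradiated mice. Of all 9120 genes, 735 stood there in the interaction and 1945 to 2888 in the other comparisons. With 0 or 1 of 6 called in each comparison, the share of members called is not a result about the group.

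Csf1, the gene of the ligand CSF1, was lower in sham Balb/c than in sham C57BL/6 mice. Its log2 signal was 8.08, 7.55 and 7.45 in the C57BL/6 sham arrays and 6.25, 6.58 and 6.35 in the Balb/c sham arrays. All 3 Balb/c sham arrays lay below all 3 C57BL/6 sham arrays. The log2 difference was -1.30 ± 0.22 (SE, limma, 95% interval -1.79 to -0.82, adjusted p = 0.0031), a 2.47-fold lower level in Balb/c. The call held in every alternative that gave a value for Csf1, each array left out in turn included. Some markers of border-associated macrophages and neutrophils were lower in Balb/c in the same comparison, where 10.5% of all genes were called. Of the tested markers of monocytes, dendritic cells, astrocytes, neurons, oligodendrocytes and endothelial cells, 0 were called. The median log2 differences of these lists, in this order, were -0.05, -0.32, 0.07, 0.48, 0.15 and 0.17, beside 0.04 for all genes. Border-associated macrophage markers had a median log2 difference of -0.76, with 2 of 9 called, Pf4 (-0.72 ± 0.19, SE, limma adjusted p = 0.0368) and Clec10a (-1.44 ± 0.33, adjusted p = 0.0169). At an unadjusted p under 0.05 in limma there were 6 of 9, beside 2077 of all 9120 genes. The mean level of the border-associated macrophage markers was 8.86 to 10.16 in C57BL/6 sham and 8.46 to 8.75 in Balb/c sham arrays. The neutrophil genes S100a8 (-3.19) and S100a9 (-2.47) and the microglial genes Olfml3 (-0.45) and Fcrls (-1.26) were also called lower in Balb/c, and the part of these cells in the Csf1 difference was not tested.

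After irradiation, Csf1 read 6.79, 7.29 and 6.44 in C57BL/6 and 6.49, 6.66 and 6.70 in Balb/c, and the strains overlapped. Balb/c against C57BL/6 was then -0.22 ± 0.22 (SE, limma adjusted p = 0.614, 95% interval -0.71 to 0.26). In C57BL/6 the 3 irradiated arrays lay below the 3 sham arrays, with a log2 difference of -0.86 ± 0.22 (SE, 95% interval -1.34 to -0.37), which missed the threshold (limma adjusted p = 0.0628). Without C57BL/6 irradiated replicate 2 it passed, at -1.08 and an adjusted p of 0.0252. Without C57BL/6 irradiated replicate 3, which stood apart, it was -0.65 with an adjusted p of 0.211. In Balb/c the difference between irradiated and sham was 0.23 ± 0.22 (SE, limma adjusted p = 0.592), and the arrays overlapped. The interaction was 1.08 ± 0.31 (SE, 95% interval 0.39 to 1.77) with an unadjusted p of 0.0055 and an adjusted p of 0.441 in limma, so a difference in response between strains was not called. In order of its mean level, Csf1 ran from Balb/c sham through Balb/c irradiated and C57BL/6 irradiated to C57BL/6 sham, and only the last neighbours did not overlap. The 3 other probe sets of Csf1 lay between 2.23 and 4.24 on all arrays, below the filter, so the ligand's values rest on 1 probe set.

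The other ligands were near the bottom of the scale. Il34, which encodes the second ligand of CSF1R, Csf2, Csf3, Il3, Il5 and Il5ra were under 3 on every array, with 2.76 as the highest value, for Csf2. Il3ra, the interleukin 3 receptor alpha chain, read 3.81 to 4.06. All 7 genes of this list of other ligands and receptors failed the filter and were not tested.

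Csf1r, the receptor of both these ligands, lies at chr18:61105572-61131139 (GRCm38.p6) and gave different answers with its 3 probe sets. The brightest, 1419872_at, showed no called difference. It read 15.06, 14.82 and 14.70 in C57BL/6 sham, 14.55, 14.78 and 14.68 in C57BL/6 irradiated, 15.05, 14.80 and 14.86 in Balb/c sham and 14.66, 14.91 and 14.88 in Balb/c irradiated arrays. All 4 groups overlapped, also between each pair of neighbours in the order of their means. Irradiation against sham was -0.19 ± 0.13 (SE, limma adjusted p = 0.420, 95% interval -0.48 to 0.10) in C57BL/6 and -0.08 ± 0.13 (adjusted p = 0.751, interval -0.37 to 0.20) in Balb/c. This probe set is near the top of the scale, with only 76 of 45101 probe sets (0.169%) brighter on average.

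Both other Csf1r probe sets were lower after irradiation in each strain, with no overlap of arrays. Probe set 1423593_a_at read 11.60, 11.41 and 11.40 in C57BL/6 sham and 10.66, 10.76 and 10.52 in the irradiated arrays of C57BL/6. In Balb/c it read 11.84, 11.77 and 11.60 in sham and 10.80, 9.98 and 10.63 in irradiated arrays. In a fit of all 16628 probe sets above the filter, it fell in Balb/c by 1.27 ± 0.19 (SE, limma adjusted p = 0.0053, 2.41-fold lower), in a comparison that called 4.53% of probe sets. In C57BL/6 the difference of -0.82 ± 0.19 (SE) had an adjusted p of 0.0508 in limma, in a comparison that called 2.44%. Averaged over strains it fell by 1.04 ± 0.13 (SE, limma adjusted p = 0.0011, 2.06-fold lower), where 11.9% of probe sets were called. The interaction of -0.45 ± 0.27 (SE, limma adjusted p = 0.687) did not pass.

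The calls for 1423593_a_at in Balb/c and in the average held with each of the 12 arrays left out in turn, with log2 differences of -1.43 to -1.02 and -1.13 to -0.92. Without both arrays that stood apart, the change was -1.02 in Balb/c (limma adjusted p = 0.0093) and -0.89 in the average (adjusted p = 0.0023). In C57BL/6 it was called in 2 of the 12 fits, with adjusted p-values from 0.0116 without Balb/c irradiated replicate 2 to 0.178 without C57BL/6 irradiated replicate 3. With the 3' minus 5' difference as a covariate, the change was -0.83 in C57BL/6 (limma adjusted p = 0.0166) and -0.91 in Balb/c (adjusted p = 0.0481). The C57BL/6 difference was thus as large with the covariate, and the Balb/c one smaller.

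Probe set 1419873_s_at read 14.59, 14.42 and 14.41 in C57BL/6 sham and 14.00, 14.22 and 13.96 in the irradiated arrays of C57BL/6. The Balb/c arrays read 14.72, 14.58 and 14.57 in sham and 14.11, 14.05 and 14.15 in irradiated arrays. It fell by 0.52 ± 0.11 in Balb/c (SE, limma adjusted p = 0.0258) and by 0.47 ± 0.08 in the average (adjusted p = 0.0046). The C57BL/6 difference of -0.41 ± 0.11 (SE) missed the threshold, with a limma adjusted p of 0.0791. The average was called with each array left out in turn. The Balb/c call was lost without any 1 of the 6 Balb/c arrays, with adjusted p-values up to 0.0993, and with the 3' minus 5' covariate (adjusted p = 0.179).

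The probe sets of Csf1r were also set against each other within each array. The log2 difference of 1423593_a_at minus 1419872_at was -3.39 ± 0.08 (SD, n = 3) in sham and -4.02 ± 0.13 in irradiated C57BL/6 arrays. In the other strain, Balb/c, it was -3.16 ± 0.12 in sham and -4.35 ± 0.54 in irradiated arrays. The Balb/c irradiated arrays ran from -4.93 to -3.86, and the Balb/c sham arrays from -3.26 to -3.03. It was more negative in irradiated mice by 0.91 on average, with p = 0.005 in a two-sided exact permutation test within strains, the smallest p that the 400 permutations allow, and 0.0075 after adjustment over 3 such comparisons. For 1419873_s_at minus 1419872_at the shift was -0.33, with the same exact permutation p of 0.005 and adjusted p of 0.0075. The probe sets thus changed unequally. Both shifts are given only with Balb/c irradiated replicate 2 included. Where their probes lie in the transcript was not analysed here. Whether transcript ends, splice forms, RNA quality or the brightness of 1419872_at bear on the unequal change was not tested.

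**Figure D2:**
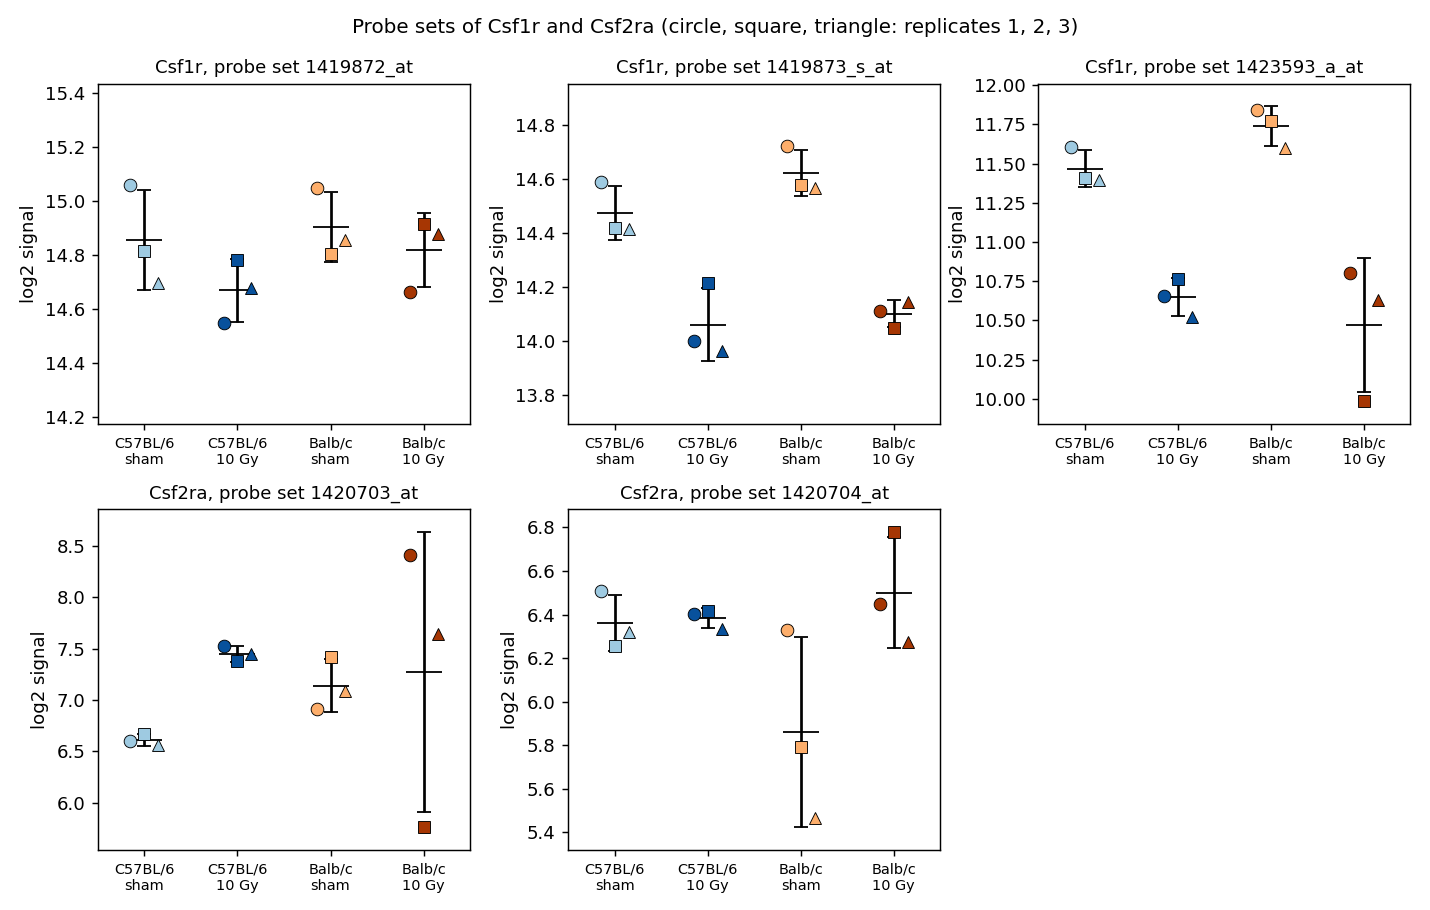
Log2 signal of the 3 probe sets of Csf1r and the 2 of Csf2ra in each array by group, with circle, square and triangle for replicates 1, 2 and 3 and black bars for the mean ± SD (n = 3); axes differ and do not start at 0. The irradiated arrays of 1419873_s_at and 1423593_a_at lie below the sham arrays of the same strain, while those of 1419872_at overlap them, and Balb/c irradiated replicate 2 is the low point of 1420703_at at 5.76.

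Csf3r, the G-CSF receptor, was lower after irradiation in both strains. It read 10.39, 10.11 and 10.08 in C57BL/6 sham, 9.79, 10.04 and 9.81 in C57BL/6 irradiated, 10.32, 10.50 and 10.25 in Balb/c sham and 10.10, 9.55 and 9.75 in Balb/c irradiated arrays. In each strain every irradiated array lay below every sham array. Averaged over strains it fell by 0.44 ± 0.11 (SE, limma adjusted p = 0.0240, 95% interval -0.68 to -0.19), a 1.35-fold lower level. Taken alone, neither strain passed, with -0.32 ± 0.16 (SE, limma adjusted p = 0.268) in C57BL/6 and -0.56 ± 0.16 (adjusted p = 0.0600) in Balb/c. The interaction was -0.24 ± 0.22 (SE, limma adjusted p = 0.796), and the strains overlapped in sham and in irradiated mice. The order of means was Balb/c irradiated, C57BL/6 irradiated, C57BL/6 sham and Balb/c sham, and only the middle neighbours did not overlap.

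The average call of Csf3r was close to the threshold. It was lost without C57BL/6 irradiated replicate 1 (limma adjusted p = 0.0530), C57BL/6 irradiated replicate 3 (0.0573), Balb/c sham replicate 2 (0.0603) or Balb/c irradiated replicate 3 (0.0522). It was also lost with the 3' minus 5' covariate, at -0.31 (adjusted p = 0.0798), without both arrays that stood apart, at -0.36 (adjusted p = 0.0909), and with no filter on low values (0.0570). The Balb/c difference passed without Balb/c irradiated replicate 1, at -0.71 (limma adjusted p = 0.0262). Without Balb/c irradiated replicate 2, the array with the large 3' minus 5' difference, it was smaller, at -0.43 (adjusted p = 0.167). Csf3r has 1 probe set on the array, so no second probe set checks it.

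Csf2ra, the alpha chain of the GM-CSF receptor, gave values that depended on 1 array. Its brighter probe set, 1420703_at, read 6.60, 6.67 and 6.56 in C57BL/6 sham and 7.53, 7.38 and 7.44 in the irradiated arrays of C57BL/6. In Balb/c it read 6.91, 7.42 and 7.09 in sham and 8.41, 5.76 and 7.65 in irradiated arrays. In C57BL/6 the irradiated arrays lay above the sham arrays, whereas the Balb/c irradiated arrays ran from the lowest to the highest value of all 12. Irradiation against sham was 0.84 ± 0.50 (SE, limma adjusted p = 0.350) in C57BL/6, 0.13 ± 0.50 (adjusted p = 0.908) in Balb/c and 0.48 ± 0.35 (adjusted p = 0.373) in the average. The low value belongs to Balb/c irradiated replicate 2, the array with the large 3' minus 5' difference. Without it, the C57BL/6 difference of 0.84 passed (limma adjusted p = 0.0485) and the average was 0.86 (adjusted p = 0.0060), 1 of the 2 members then called. The Balb/c difference, which loses that array, moved from 0.13 to 0.89 (limma adjusted p = 0.0548) and was not called. Without both arrays that stood apart the average was 0.86 (adjusted p = 0.0147), and with the 3' minus 5' covariate it was 1.06 (adjusted p = 0.0067).

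The second Csf2ra probe set, 1420704_at, had its larger difference in the other strain. It read 6.51, 6.26 and 6.32 in C57BL/6 sham and 6.40, 6.41 and 6.33 in C57BL/6 irradiated arrays, a difference of 0.02 ± 0.20 (SE, limma adjusted p = 0.964). In Balb/c it read 6.33, 5.79 and 5.46 in sham and 6.45, 6.78 and 6.28 in irradiated arrays, a difference of 0.64 ± 0.20 (SE, limma adjusted p = 0.105). Its arrays overlapped in C57BL/6 and in Balb/c. The Pearson correlation of the 2 probe sets over the 12 arrays was -0.24, given as a description. In the average both were higher after irradiation, by 0.48 and 0.33 on the log2 scale, and neither was called, with an adjusted p of 0.160 (unadjusted 0.0427) for 1420704_at in limma. Within arrays, 1420703_at minus 1420704_at shifted by 0.15 with irradiation, with p = 0.825 in the two-sided exact permutation test and after adjustment over the 3 such comparisons. No direction is given for Csf2ra as a gene.

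The beta chains showed no called difference. Csf2rb, the common beta chain, read 11.48, 11.27 and 11.15 in C57BL/6 sham, 11.19, 11.30 and 11.35 in C57BL/6 irradiated, 11.66, 11.50 and 11.44 in Balb/c sham and 11.54, 11.48 and 11.24 in Balb/c irradiated arrays. All neighbouring groups overlapped. Irradiation against sham was -0.02 ± 0.13 (SE, limma adjusted p = 0.941, 95% interval -0.30 to 0.26) in C57BL/6 and -0.12 ± 0.13 (adjusted p = 0.631, interval -0.40 to 0.16) in Balb/c. Its second probe set, 1421326_at, lay at 6.96 to 7.58 and was not called either.

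Csf2rb2, the beta chain of the interleukin 3 receptor, read 9.38, 9.26 and 9.42 in C57BL/6 sham, 9.36, 9.19 and 9.42 in C57BL/6 irradiated, 9.37, 8.84 and 8.78 in Balb/c sham and 8.80, 9.09 and 8.49 in Balb/c irradiated arrays. The irradiated arrays of Balb/c all lay below those of C57BL/6. That difference was -0.53 ± 0.18 (SE, 95% interval -0.94 to -0.13) and missed the threshold (limma adjusted p = 0.108). Irradiation against sham was -0.03 ± 0.18 (SE, adjusted p = 0.944, interval -0.43 to 0.38) in C57BL/6 and -0.20 ± 0.18 (adjusted p = 0.557, interval -0.61 to 0.20) in Balb/c. Csf2rb and Csf2rb2 are near-identical copies, so their probes could take up RNA of the other gene.

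**Figure D3:**
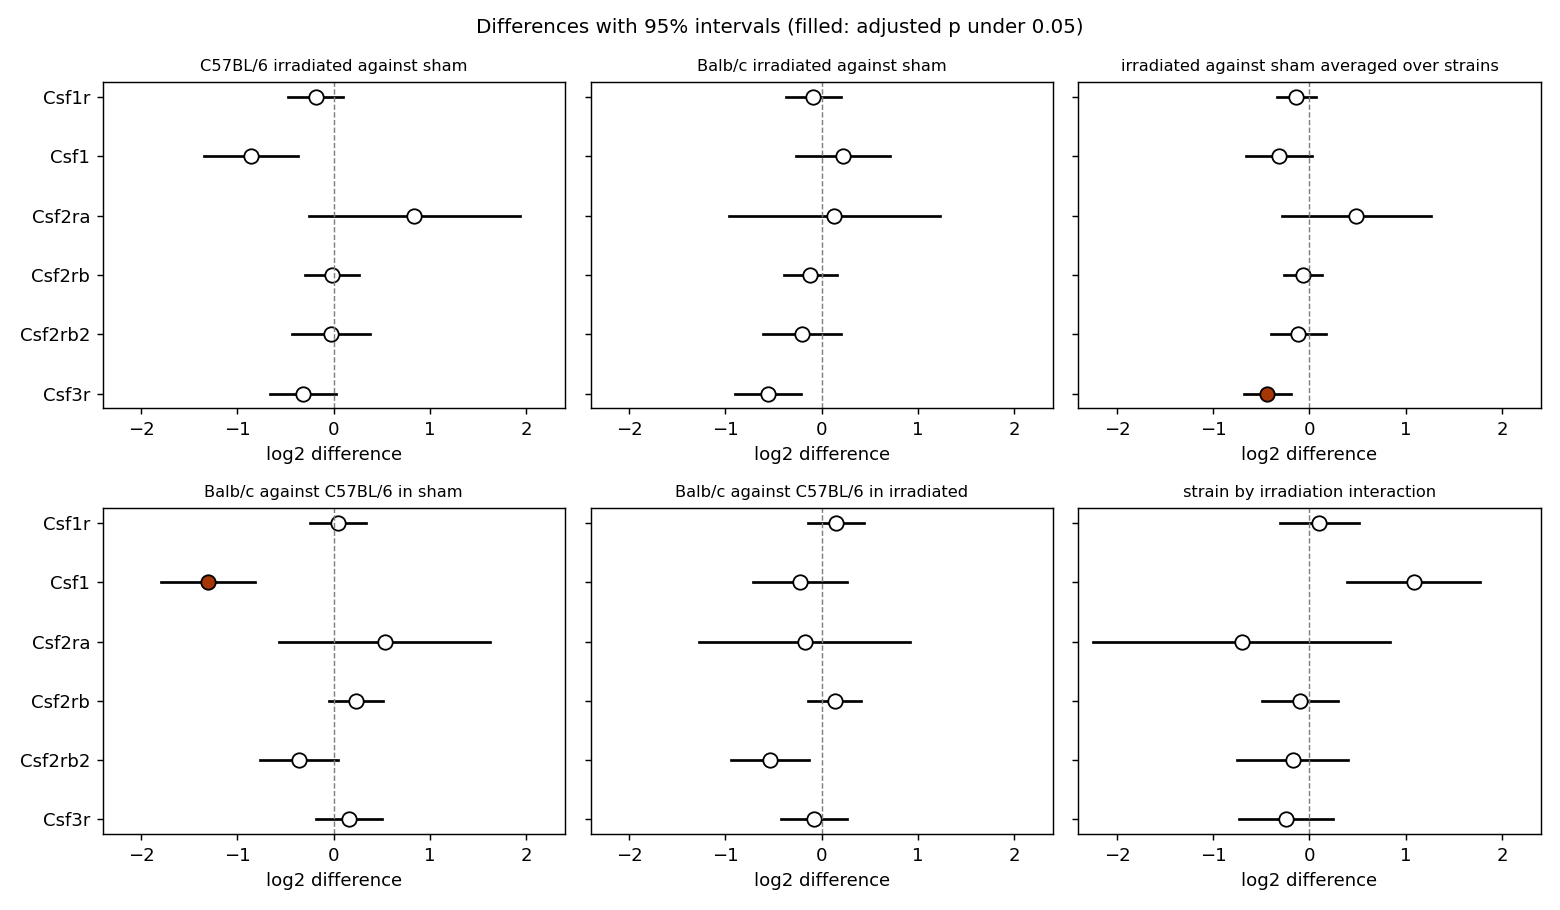
Log2 difference of each gene in the 6 comparisons of the fit, as points with 95% intervals; filled points passed an adjusted p of 0.05. The filled points are Csf3r in irradiated against sham averaged over strains (-0.44) and Csf1 in Balb/c against C57BL/6 in sham (-1.30), and the intervals of Csf2ra are the widest in every panel.

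Per gene, the patterns most like each member were found by Pearson correlation of log2 values over the 12 arrays among the 9120 genes, with the correlation of deviations from group means beside it. Csf1r was nearest to Tbl2 (0.93 and 0.89 within groups), Kbtbd2 (0.91 and 0.89) and the fractalkine receptor gene Cx3cr1 (0.90 and 0.88). Csf1 was nearest to Ralgps2 (0.97 and 0.95), Zfp944 (0.94 and 0.81) and Arap3 (0.94 and 0.76). Csf3r was nearest to the histone methyltransferase gene Ehmt2 (0.96 and 0.92), Asb2 (0.96 and 0.91) and the phosphatase gene Ptpre (0.95 and 0.89). Csf2ra was nearest to the galectin gene Lgals9 (0.90 and 0.98), Vcp (0.90 and 0.89) and the cathepsin gene Ctsz (0.87 and 0.85). Csf2rb was nearest to Wdr1 (0.90 and 0.87), and Csf2rb2 to Memo1 (0.87 and 0.81). Among the members themselves the highest correlation was 0.58 (0.50 within groups), between Csf1r and Csf2rb, and the highest within groups was 0.70 (0.12 over all arrays), between Csf2ra and Csf3r. The within-group correlations of Csf2ra rest mainly on the Balb/c irradiated arrays. Its SD was 1.36 there, against 0.06 in C57BL/6 sham, 0.08 in C57BL/6 irradiated and 0.26 in Balb/c sham. They are given only with Balb/c irradiated replicate 2 included. The arrays share their normalization and RNA quality, so these values are descriptions.

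For the signalling genes downstream of CSF1R, the share called after irradiation was close to or below that of all genes. Of 27 genes listed, 23 had a probe set of their own symbol and 21 passed the filter. By limma 0 were called in C57BL/6, beside 3.67% of all genes. In Balb/c 1 fell, beside 6.15% of all genes called, and in the average 3 fell, Grb2, Inpp5d and Plcg2, beside 15.9%, with none higher. At an unadjusted p under 0.05 in limma there were 6 of the 21 in C57BL/6, beside 1945 of all 9120 genes. By the same measure there were 4 in Balb/c, beside 2082, and 10 in the average, beside 2888. The median log2 change of the 21 was -0.24 in C57BL/6 and -0.19 in Balb/c, beside -0.04 in both for all genes. Plcg2, a phospholipase that signals below CSF1R, read 10.65, 10.79 and 10.59 in Balb/c sham and 10.21, 9.76 and 10.06 in Balb/c irradiated arrays. It fell by 0.66 ± 0.15 in Balb/c (SE, limma adjusted p = 0.0283) and by 0.48 ± 0.11 in the average (adjusted p = 0.0135). The Balb/c call was lost without any Balb/c sham array or Balb/c irradiated replicate 2 or 3, with adjusted p-values up to 0.102. Without both arrays that stood apart, the average of Plcg2 was -0.38 (adjusted p = 0.0531), and Grb2 (0.0559) and Inpp5d (0.122) were not called.

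Between strains, Pik3cg and Ubash3b of the 21 were called higher and Cbl and Fyn lower in Balb/c in sham mice, where 10.5% of all genes were called. In irradiated mice Pik3cg and Ubash3b were called higher and Cbl and Ptpn6 lower, beside 8.97% of all genes. The Ptpn6 call was lost in 5 fits that left out an array (limma adjusted p up to 0.116, without Balb/c irradiated replicate 2). The Ubash3b call was lost in 4 such fits in irradiated mice (up to 0.0902) and 5 in sham mice (up to 0.137). Without both arrays that stood apart, neither was called in irradiated mice (adjusted p 0.194 for Ptpn6, 0.206 for Ubash3b). Nor was either with the 3' minus 5' covariate (0.454 and 0.172). Cbl, Pik3cg and Fyn kept their calls in these fits. Cbl, a ubiquitin ligase that removes activated CSF1R, was lower in Balb/c by 0.60 in sham (limma log2 difference -0.60 ± 0.11 SE, adjusted p = 0.0052) and by 0.66 in irradiated mice (-0.66 ± 0.11, adjusted p = 0.0034). In the fit of all probe sets, which called 9.68% of them between strains in sham mice, a second Cbl probe set was also lower in Balb/c (-0.73 ± 0.18, adjusted p = 0.0234). Pik3cg, a PI3 kinase subunit, was higher in Balb/c by 0.95 ± 0.13 in sham (SE, limma adjusted p = 0.00078) and by 1.25 ± 0.13 in irradiated mice (adjusted p = 0.00014). Its second probe set read the other way in sham, at -0.56 ± 0.16 (limma adjusted p = 0.0517), so no direction is given for the gene. Fyn, a Src family kinase, was lower in Balb/c sham by its brightest probe set (-0.85 ± 0.17, limma adjusted p = 0.0096), while another gave -0.27 ± 0.20 (adjusted p = 0.518). Mouse strains differ in sequence, and whether a probe covers such a difference was not tested.

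Among genes of Janus kinase and STAT signalling, through which the beta chain and G-CSF receptors act, 13 of 16 listed passed the filter. Of these, 2 fell in C57BL/6, beside 3.67% of all genes called, 3 fell and 2 rose in Balb/c, beside 6.15%, and 5 fell and 2 rose in the average, beside 15.9%. The median log2 change was -0.27 in C57BL/6 and -0.18 in Balb/c, beside -0.04 in both for all genes. Several of these calls were close to the threshold. With each of the 12 arrays left out in turn, the call of Stat3 in the average was lost in 10 fits, and the Balb/c calls of Stat5b and of the survival gene Bcl2l1 in 11 and 7. Without both arrays that stood apart, Stat3 (limma adjusted p = 0.0628), Fes (0.0568) and Bcl2l1 (0.0725) were not called in the average. Stat5b (0.0453), Socs2 (0.0234), Socs3 (0.0137) and Myc (0.0035) still were. Between strains 0 were called in limma, beside 10.5% of all genes in sham and 8.97% in irradiated mice. At an unadjusted p under 0.05 in limma there were 3 in sham and 2 in irradiated mice, beside 2077 and 2048 of all 9120 genes. In the interaction there were 0 by either measure.

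Myc, a transcription factor gene induced by growth factor receptors, read 9.11, 8.94 and 9.01 in C57BL/6 sham and 7.72, 8.15 and 8.0 in the irradiated arrays of C57BL/6. In Balb/c it read 8.56, 8.89 and 8.58 in sham and 7.66, 7.33 and 6.96 in irradiated arrays. Sham and irradiated arrays did not overlap in either strain. Myc fell by 1.06 ± 0.18 in C57BL/6 (SE, limma adjusted p = 0.0115, 2.09-fold lower) and by 1.36 ± 0.18 in Balb/c (adjusted p = 0.0023, 2.57-fold lower). These calls held with each array left out in turn, with adjusted p-values up to 0.0417 and 0.0139. Without both arrays that stood apart the C57BL/6 difference was -1.09 (adjusted p = 0.0642) and the Balb/c one -1.37 (adjusted p = 0.0184).

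Socs3, a feedback inhibitor of the G-CSF receptor, read 13.67, 13.57 and 13.54 in C57BL/6 sham and 13.21, 12.39 and 12.48 in the irradiated arrays of C57BL/6. The Balb/c arrays read 13.48, 13.61 and 13.84 in sham and 12.81, 13.11 and 12.54 in irradiated arrays, again without overlap. It fell by 0.90 ± 0.21 in C57BL/6 (SE, limma adjusted p = 0.0464), by 0.82 ± 0.21 in Balb/c (adjusted p = 0.0493) and by 0.86 ± 0.15 in the average (adjusted p = 0.0051). The calls within a strain were lost in 10 of the 12 fits that leave out an array, with adjusted p-values up to 0.173 without C57BL/6 irradiated replicate 3 in C57BL/6 and up to 0.153 without Balb/c irradiated replicate 3 in Balb/c, while the average held in all 12. Both other Socs3 probe sets also fell in the average, by 0.80 ± 0.17 and 1.93 ± 0.28 (SE, limma adjusted p = 0.0127 and 0.0021).

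Socs2, another feedback inhibitor, rose, with readings of 4.32 to 5.32 in C57BL/6 sham, 5.66 to 6.08 in C57BL/6 irradiated, 4.52 to 5.64 in Balb/c sham and 5.97 to 6.73 in Balb/c irradiated arrays. Both sham ranges reach below the filter of 5, and every irradiated array lies above it. The irradiated arrays alone were thus enough for Socs2 to be tested, and its sham values are low. The rise was 1.40 ± 0.33 in Balb/c (SE, limma adjusted p = 0.0329) and 1.18 ± 0.23 in the average (adjusted p = 0.0080). The Balb/c call was lost without Balb/c sham replicate 1 or 2 or Balb/c irradiated replicate 1 or 3, with adjusted p-values up to 0.118. A second Socs2 probe set gave 0.46 ± 0.28 in the average (SE, limma adjusted p = 0.307) and was not called. Stat5b, which carries signals of these receptors to the nucleus, fell by 0.36 ± 0.08 in the average (SE, limma adjusted p = 0.0101).

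**Figure D4:**
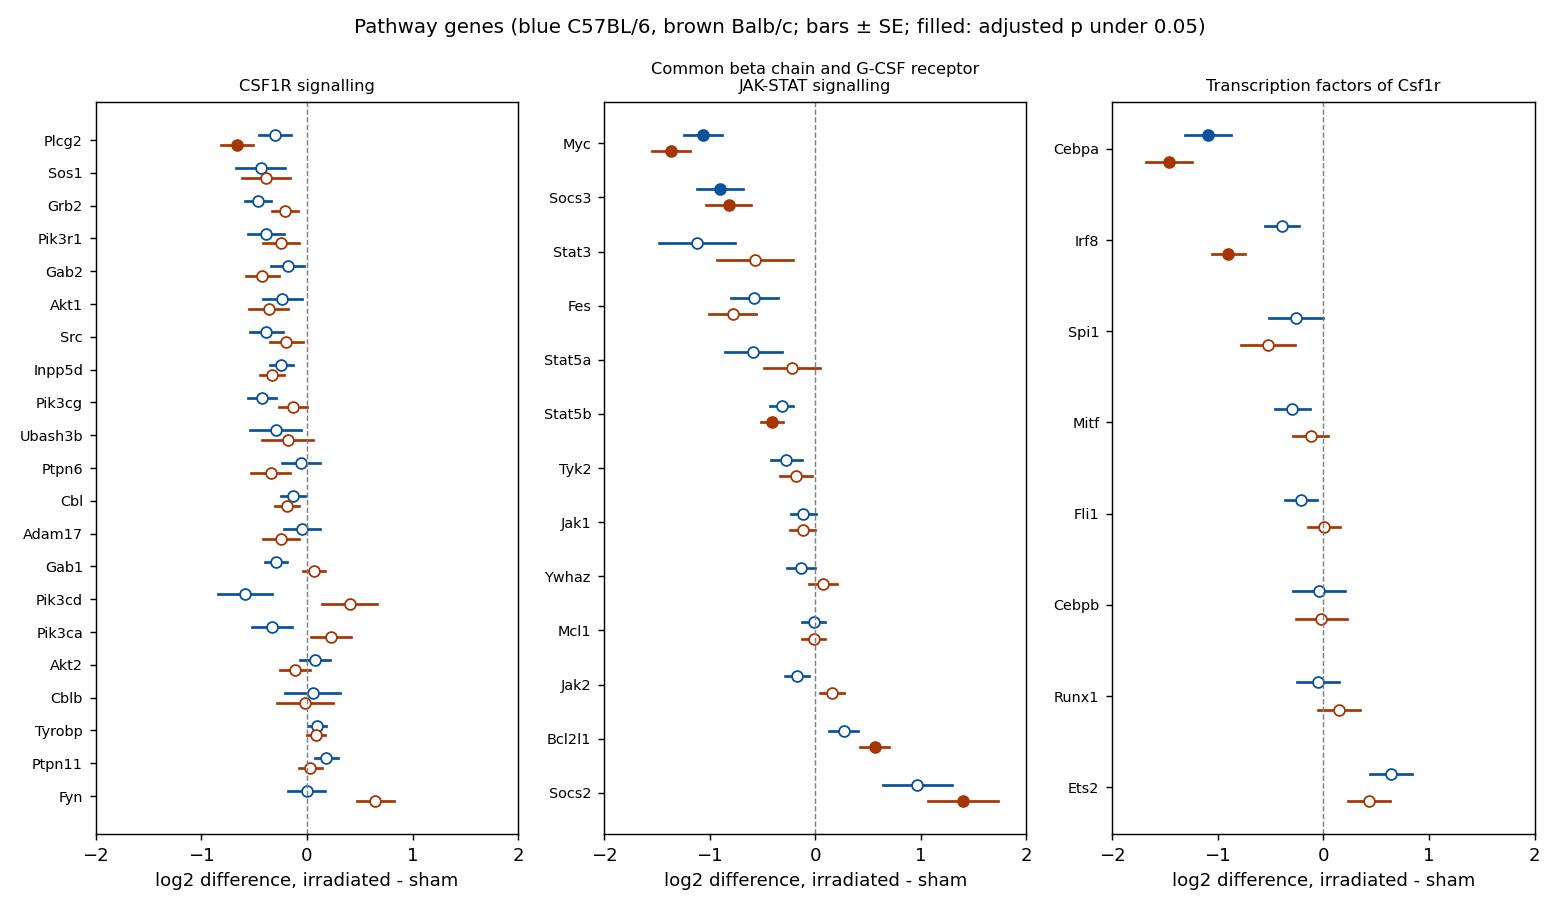
Log2 difference of irradiated against sham for the tested genes of 3 lists, blue for C57BL/6 and brown for Balb/c, with bars of ± 1 SE; filled points passed an adjusted p of 0.05. Myc, Socs3 and Cebpa are filled in both strains, at -0.82 or lower, and Socs2 lies farthest to the right.

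Of 8 transcription factors known to act on Csf1r, all passed the filter; 1 fell in C57BL/6, 2 fell in Balb/c, and 2 fell and 1 rose in the average. The shares of all genes called in these comparisons were 3.67%, 6.15% and 15.9%. The median log2 change was -0.24 in C57BL/6 and -0.07 in Balb/c, beside -0.04 in both for all genes. Cebpa, a myeloid lineage factor, read 9.42, 9.67 and 9.47 in C57BL/6 sham and 8.56, 8.79 and 7.94 in the irradiated arrays of C57BL/6. The Balb/c arrays read 9.98, 10.40 and 9.87 in sham and 8.41, 8.65 and 8.80 in irradiated arrays. No irradiated array reached a sham array of its strain. Cebpa fell by 1.09 ± 0.22 in C57BL/6 (SE, limma adjusted p = 0.0239, 2.13-fold lower) and by 1.47 ± 0.22 in Balb/c (adjusted p = 0.0039, 2.76-fold lower). The C57BL/6 call was lost without any C57BL/6 sham array (adjusted p up to 0.0712) or C57BL/6 irradiated replicate 3, and without both arrays that stood apart it was -0.85 (adjusted p = 0.0898). The Balb/c call held in all 12 of these fits and without both arrays, at -1.48 (adjusted p = 0.0078).

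Irf8, another factor of the microglial lineage, fell in Balb/c by 0.90 ± 0.16 (SE, limma adjusted p = 0.0102) and in the average by 0.65 ± 0.11 (adjusted p = 0.0048). In the fit of all probe sets, its second probe set fell in the average by 0.52 ± 0.10 (SE, limma adjusted p = 0.0076). That probe set was not called in Balb/c (-0.48 ± 0.13, adjusted p = 0.0726) or in C57BL/6 (-0.56 ± 0.13, adjusted p = 0.0587). With the 3' minus 5' covariate the Balb/c difference of Irf8 was -0.71 (adjusted p = 0.114). Spi1, which encodes PU.1, was -0.26 in C57BL/6 (limma adjusted p = 0.586) and -0.53 in Balb/c (adjusted p = 0.252) and was not called. Ets2 rose in the average by 0.54 ± 0.14 (SE, limma adjusted p = 0.0266), a call lost in 8 of the 12 fits that leave out an array, with adjusted p-values up to 0.0647. Runx1 was lower in Balb/c sham by its brightest probe set (-0.93 ± 0.20, limma adjusted p = 0.0115; 0.0525 without Balb/c sham replicate 1), but its other probe sets gave -4.63 ± 0.26 and 0.12 ± 0.27, so no size is given.

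Markers of other cells moved between the same groups. The mean log2 level of 11 microglial markers was 13.66 to 13.68 in C57BL/6 sham, 13.46 to 13.67 in C57BL/6 irradiated, 13.56 to 13.59 in Balb/c sham and 13.35 to 13.51 in Balb/c irradiated arrays. Of these, Siglech and Trem2 were called lower in the average, where 15.9% of all genes were called. Monocyte markers, 7 of 9 above the filter, had means of 5.47 to 6.51, 6.62 to 7.75, 5.62 to 5.97 and 6.21 to 7.14 in the same order of groups. In the average 5 of the 7 were called higher, beside 15.9% of all genes called. Border-associated macrophage markers, all 9 above the filter, ran at 8.86 to 10.16, 9.92 to 10.20, 8.46 to 8.75 and 9.06 to 9.62. Of the 9, 6 were called higher in the average, beside the same 15.9%. Monocytes and macrophages also make several of the receptors described here, and the part of such cells in the values of Csf1r, Csf2ra and Csf3r was not tested.

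Of 9 neutrophil markers, 4 were above the filter, and Mmp8 and Cxcr2 were under 3 on all arrays. Their mean level was 3.61 to 5.49 in C57BL/6 sham, 3.70 to 6.16 in C57BL/6 irradiated, 3.08 to 3.27 in Balb/c sham and 3.98 to 5.78 in Balb/c irradiated arrays. S100a8 and S100a9 were called higher in Balb/c irradiated mice, by 4.10 ± 0.67 and 3.19 ± 0.64 (SE, limma adjusted p = 0.0070 and 0.0171). For Csf3r, the receptor best known from neutrophils, the same comparison gave -0.56 (limma adjusted p = 0.0600), the opposite sign. Among astrocyte markers, 3 of 6 were called higher in Balb/c and 4 of 6 in the average, beside 6.15% and 15.9% of all genes called. The astrocyte means were 8.71 to 9.33, 9.46 to 9.84, 8.76 to 9.30 and 9.67 to 10.5 in the order of groups above. Of the 12 tested markers of dendritic cells, neurons, oligodendrocytes and endothelial cells, 0 were called for irradiation in limma. In the average 4 of the 12 had an unadjusted p under 0.05 in limma, beside 2888 of all 9120 genes. Itgax, Xcr1, Ccr7, Tubb3 and Pecam1, markers of these cells, were under 3 on all arrays.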

How the data were processed

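CD11b+ hippocampal cells of 12 mice were profiled on Affymetrix arrays, 1 mouse per array, from 5000 to 10000 cells with RNA integrity numbers above 7.4 and 2 rounds of linear amplification, per the labels' protocols. What the authors deposited for each of 45101 probe sets is a log2 value, computed by GCRMA according to the submitters' processing notes, and once sorted, the values of any 2 arrays are equal to within 0.001. Scanner files were not used here. Background correction and normalization could therefore not be redone, and precision is limited by how many arrays there are.

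In the annotation given, 34945 probe sets had 1 gene symbol, 932 had several and were not named, and 64 were controls. Each gene was represented by its probe set with the highest mean, and a gene was tested where its log2 value exceeded 5 on 3 or more arrays (9120 of 18193). Limma 3.58.1 in R 4.3.3 fitted 1 mean per group (8 residual degrees of freedom), with 6 contrasts and Benjamini and Hochberg adjustment over all genes of a contrast; a call is an adjusted p under 0.05. Same-numbered arrays of the irradiated C57BL/6 and Balb/c groups deviated together (correlations 0.217, 0.447 and 0.323, each over 0.1). The other 5 pairs of groups had at least 1 correlation that was not over 0.1. The fit reported here did not use this pairing, which was seen in the data only. The replicate number entered as a block only as another setting. Differences between probe sets of a gene were compared by two-sided exact permutation within strains. Promoter sequences and positions come from RefSeq tables of GRCm38.p6, matched by symbol.

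The members, the pathway and marker lists and the tests were chosen with earlier results of these data known. Named pathway genes are those called in at least 1 contrast, up to 4 per list by smallest p, with Il34 whatever it showed; Spi1, Grb2, Inpp5d and the marker genes given with values were named after their values were seen. Other settings tried were a filter at 7 or none, a floor at 4, median-centred arrays, probe sets averaged per gene or each tested singly, array weights, eBayes with trend and robust, a fit restricted to the groups compared, the replicate number as a block, the 3' minus 5' difference as a covariate and each array left out. Fits without both arrays that stood apart, and such fits for single probe sets and pathway genes, were added after seeing the data. The fit was tested on simulated data.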

Additional observations from a re-analysis of the deposited data

How the results depend on the processing

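The 36 differences of the 6 genes were refitted under 24 alternatives, giving 846 values: 801 kept their direction and their side of the threshold, 7 lost a call, 13 gained one and 25 changed sign, and of those 25 none was called before or after. A floor at 4 lies below every value of the members' chosen probe sets, and centring has little to move in arrays that share 1 distribution, so neither setting says anything about stability. Of 18 pairs of same-numbered arrays, 9 had correlations of deviations over 0.1. With a replicate block, 947 (strains, sham), 793 (strains, irradiated), 378 (C57BL/6), 580 (Balb/c), 1394 (average) and 7 (interaction) genes were called, and no member's call or direction changed. With 3 arrays per group, precision is limited.

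Counts of genes called moved as follows, and the causes were not tested beyond the construction of each alternative. Without a filter 155 (C57BL/6), 283 (Balb/c), 867 (average) and 2 (interaction) genes were called, and 0 members in the average. With all probe sets 1609 and 1456 were called between strains in sham and irradiated mice. With only the groups compared 96 (C57BL/6), 364 (Balb/c) and 533 (strains, irradiated) were called, and 1 member, Csf2ra, in C57BL/6. With the 3' minus 5' covariate 104 (Balb/c), 873 (average), 3 (interaction) and 336 (strains, irradiated) were called. Without both arrays that stood apart 104 (C57BL/6), 361 (Balb/c), 788 (average), 2 (interaction) and 450 (strains, irradiated) were called. In Balb/c, Csf3r was the 1 member called with a filter at 7 or with trend and robust.

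With the mean of all probe sets 1 member was called in C57BL/6 (Csf1r, -0.47), 2 in Balb/c (Csf1r, -0.62, and Csf3r), 2 in the average (Csf1r, -0.55, and Csf3r) and 0 between strains in sham, where Csf1 fell below the filter and has no value. Signs changed for Csf2rb in C57BL/6 (0.074) and between strains in irradiated mice (-0.12), and for the interaction of Csf1r (-0.15). Array weights turned Csf2rb in C57BL/6 (0.0027) and Csf2ra between strains in irradiated mice (0.038). The covariate turned the interaction of Csf2ra (0.51) and Csf3r (0.033) and their strain differences in irradiated mice (1.14 and 0.22). Without both arrays apart, the interaction of Csf2ra was 0.046, and the strain differences in irradiated mice were 0.58 for Csf2ra and 0.0094 for Csf3r.

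With each array left out in turn, 681 to 939 genes were called between strains in sham and 576 to 847 in irradiated mice, 113 to 351 for C57BL/6 (lowest without C57BL/6 irradiated replicate 3), 218 to 592 for Balb/c and 923 to 1455 for the average (both lowest without Balb/c sham replicate 2), and 2 to 8 for the interaction. Members called were 0 to 1 in each strain and 0 to 2 in the average, 0 in the interaction, 1 between strains in sham and 0 in irradiated mice. Ranges that crossed 0 were -0.097 to 0.070 (Csf2rb, C57BL/6), -0.077 to 0.041 (Csf2rb2, C57BL/6), -0.44 to 0.89 (Csf2ra, Balb/c), -0.32 to 0.013 (Csf2rb2, interaction), -1.27 to 0.049 (Csf2ra, interaction) and -0.035 to 0.15 (Csf1r, strains in sham). Between strains in irradiated mice they were -0.42 to 0.0034 (Csf1), -0.74 to 0.58 (Csf2ra) and -0.23 to 0.044 (Csf3r).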
